A study of Mus musculus with 4 samples.

Results

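The cartilage collagens described here are Col2a1, which encodes the chain of collagen II, Col9a1, Col9a2 and Col9a3 for the chains of collagen IX, Col11a1 and Col11a2 for chains of collagen XI, Col27a1 for collagen XXVII and Col10a1 for collagen X. They were chosen by gene name, and all 8 were found once each among the 47643 genes of the deposited table. RNA came from cells released from the surface of the mouse femoral shaft, the periosteum, which is the membrane that wraps bone and supplies cells for its repair. All animals, those behind the control cells included, carried 1 allele of Sox9CreErt2, a tamoxifen-inducible Cre placed at the Sox9 locus, and 1 allele of a Td-Tomato reporter at ROSA26. Tamoxifen (20 mg/mL, 100 µL a dose) was injected 3 times, at intervals of 48 h, and intact femora were taken after 2 weeks. The TdTomato+ group therefore holds cells whose Sox9 locus was active around the time of tamoxifen, with their progeny, and the TdTomato- group holds the other cells of the same digests. Each group has 2 libraries, 1 from each of 2 collections that together pooled 9 mice, so the spread between libraries is not a spread between animals. The labels give no age and no sex.

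Collagen II forms the fibrils of cartilage. Collagen XI sits inside those fibrils and limits their width, and collagen IX lies along their surface and links them to other matrix proteins. Collagen X is laid down by hypertrophic chondrocytes, the enlarged cells at the border with bone, and collagen XXVII is a fibrillar collagen of developing cartilage. The transcription factor Sox9, with its partners Sox5 and Sox6, activates several of these genes in chondrocytes.

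As collagens, the chains share a coding unit. A collagen helix repeats glycine and 2 further residues, so its coding sequence has a GGN codon in every triplet of codons, and many helix exons have 54 bases that hold 6 such triplets. The first 54-base coding exon of this form is shown for each member that has one, from the GENCODE vM21 transcript with the longest coding sequence (GRCm38, the same build as mm10), with the GGN codon that opens each triplet in capitals. The exons were picked for holding this repeat, so it is no result that the 7 members with such an exon share it. The 54-base exons of other collagen genes were not counted apart, so the unit is not shown to be particular to these members.
Col2a1 coding exon 6, chr15:97998545-97998598, minus strand: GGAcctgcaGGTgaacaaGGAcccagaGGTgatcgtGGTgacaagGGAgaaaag
Col9a1 coding exon 11, chr1:24202014-24202067, plus strand: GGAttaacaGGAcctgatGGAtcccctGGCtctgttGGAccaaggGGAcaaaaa
Col9a2 coding exon 5, chr4:121043696-121043749, plus strand: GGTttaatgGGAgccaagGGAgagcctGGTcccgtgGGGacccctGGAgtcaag
Col9a3 coding exon 5, chr2:180601582-180601635, plus strand: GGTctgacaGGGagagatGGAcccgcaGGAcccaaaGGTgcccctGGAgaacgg
Col11a1 coding exon 15, chr3:114108281-114108334, plus strand: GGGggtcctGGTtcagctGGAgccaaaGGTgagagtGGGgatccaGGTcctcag
Col11a2 coding exon 15, chr17:34051480-34051533, plus strand: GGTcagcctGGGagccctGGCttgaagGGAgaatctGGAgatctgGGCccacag
Col27a1 coding exon 4, chr4:63231792-63231845, plus strand: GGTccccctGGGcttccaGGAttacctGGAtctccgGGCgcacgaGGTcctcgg

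Col2a1 had 24 coding exons of 54 bases among its 54 coding exons, Col11a1 had 31 of 67, Col11a2 had 31 of 66 and Col27a1 had 33 of 61. Each of the 3 collagen IX genes had 14. Over 198905 coding exons of all protein-coding genes, 0.676% are 54 bases long. Col10a1 has 2 coding exons and none of 54 bases, since 1 exon of 1886 coding bases carries its helix. The longest unbroken run of triplets was 339 in Col2a1, 338 in Col11a1 and Col11a2, 217 in Col27a1, 113 in each collagen IX chain and 61 in Col10a1.

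The table gives group means, not libraries, and the 4 library values of each gene were solved from it. Libraries are named here by the depth that the values imply, which was 32.0 and 41.6 M reads for TdTomato+ cells and 17.0 and 74.0 M for TdTomato- cells. Values are RPKM, the reads of a gene divided by its genomic span in kilobases, introns included, and by the depth in M reads. For all 8 genes the values of the negative libraries could be assigned to their library. In positive cells the assignment was settled for Col27a1 and Col10a1, and for the other 6 both possible assignments are given. The libraries of 1 group differed from each other: Sox9 had 16.4 and 4.51 RPKM in TdTomato+ cells, against 3.32 and 0.0244 RPKM in TdTomato- cells. The negative library of 74.0 M reads thus had few Sox9 reads, and that of 17.0 M reads lay close to the lower positive library. The members are therefore also set against each negative library in turn. Leukocyte markers were present in every library: all 14 of a marker list were lower in positive cells by fold under either assignment, and their summed level was 3399 to 14295 RPKM in positive libraries and 6923 to 40365 RPKM in negative ones over both assignments. Epx and Cd3e, which mark eosinophils and T cells, were at 0 in the positive library of 32.0 M reads, and no list member was at 0 in a negative library. Of the 14, 3 (Prg2, Epx and Mmp8) had an unadjusted p below 0.05 in the authors' deposited table, as 0.296% of all genes did in this direction. Their part in the results below was not tested.

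All 8 cartilage collagens were higher in TdTomato+ than in TdTomato- cells by fold, and Col2a1 passed the test. In all 8, each positive value in RPKM exceeded each negative value whichever assignment was used. On the scale of the table, which divides by depth once more, this held for 7 of the 8, and Col27a1 overlapped, at 25.9 and 11.8 in positive libraries against 14.0 and 1.85 in negative ones. The 17166 genes that had 10 reads or more in 2 or more libraries are called measured below. In RPKM and under either assignment, 14.1% of them had each positive value above each negative one, and 9.98% had the opposite order. No such share was taken on the scale of the table. In the authors' deposited table, Col2a1 was the 1 member with a false discovery rate (FDR) below 0.05, a call that 0.0063% of the 47643 genes reached in this direction. The authors' deposited table gives 6 of the 8 an unadjusted p below 0.05, against 0.598% of all genes and 1.58% of measured genes in the same direction. The median log2 fold of the members, taken on mean RPKM + 0.1, was 3.82, or 3.92 with the other assignment, beside 0.06 and -0.13 over all measured genes. The members were picked with earlier results of these data known, so these counts describe them and do not test them as a set. Fewer cells of a type in a library and less RNA per cell cannot be told apart in such bulk samples.

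**Figure D1:**
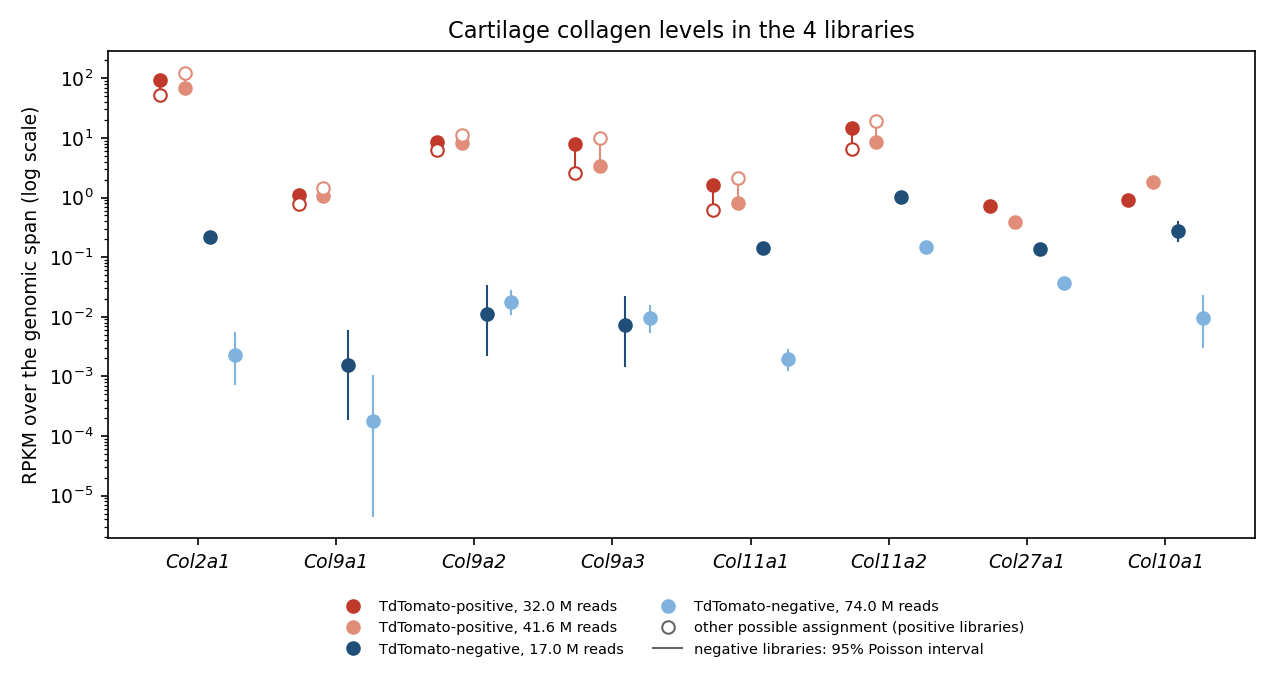
RPKM over the genomic span (log scale) of the 8 genes in each library, TdTomato-positive in red and TdTomato-negative in blue. Open circles give the other possible assignment of the positive values, and lines on the negative values are exact 95% Poisson intervals of the reads. Every positive value lies above both negative values of the same gene.

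Col2a1 (ENSMUSG00000022483.16, mm10 chromosome 15, 97975602 to 98004695) stood at 94.6 and 68.7 RPKM in the positive libraries of 32.0 and 41.6 M reads, or at 52.8 and 123 RPKM with the other assignment, against 0.219 and 0.00232 RPKM in the negative libraries of 17.0 and 74.0 M reads. The negative values rest on 108 and 5 reads. The lowest possible positive value was 241 times the higher negative one. In the authors' deposited table its ratio of group means was 229, its p 8.98e-10 and its FDR 4.28e-05. Its log2 fold of 8.60 ranked 1 among all measured genes, and it kept that rank with the other assignment and with geometric means.

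The 3 collagen IX genes had between 1 and 21 reads in each negative library. Col9a2 (chromosome 4, 121039385 to 121055322) was at 8.63 and 8.25 RPKM in positive libraries, or at 6.31 and 11.3 RPKM, against 0.0111 and 0.0178 RPKM in negative ones, which are 3 and 21 reads. Col9a3 (chromosome 2, 180597790 to 180622189) was at 7.77 and 3.35 RPKM, or at 2.55 and 10.1 RPKM, with TdTomato, against 0.00724 and 0.00941 RPKM without it, from 3 and 17 reads. Col9a1 (chromosome 1, 24177610 to 24252684) was at 1.08 and 1.06 RPKM, or at 0.787 and 1.44 RPKM, with TdTomato, against 0.00157 and 0.00018 RPKM from 2 reads and 1 read without it. The negative libraries thus overlapped within counting error for Col9a2, whose 95% Poisson intervals were 0.00229 to 0.0324 and 0.011 to 0.0272 RPKM, and for Col9a3, at 0.00149 to 0.0212 and 0.00548 to 0.0151 RPKM. Those of Col9a1 overlapped too, at 0.00019 to 0.00567 and 4.56e-06 to 0.001 RPKM. Sox9 in the same 2 libraries was at 3.32 and 0.0244 RPKM.

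None of the collagen IX genes passed the FDR of the authors' deposited table, where it was 0.0981 for Col9a2, 0.305 for Col9a3 and 1.00 for Col9a1. Their p in the authors' deposited table was 1.44e-05, 9.61e-05 and 0.0144. When the same p-values were adjusted over measured genes only, Col9a2 had an adjusted p of 0.0354 and Col9a3 one of 0.110, and 0.0466% of measured genes were called in this direction. The authors' deposited table lists ratios of 58.2 for Col9a2, 42.2 for Col9a3 and 8.83 for Col9a1. The values behind these ratios carry an offset of 0.1 RPKM, which caps the fold of genes with low values. Col9a1 had a log2 fold of 3.54 where 3.55 is the most that its positive mean allows with the offset, and the ratio of its mean RPKM without the offset was 1223, or 1274 with the other assignment, with only 3 negative reads behind it. On the same measure Col2a1 was at 739, Col9a2 at 584 and Col9a3 at 667.

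The collagen XI genes were also higher in positive cells, and had more reads in negative cells than the collagen IX genes. Col11a2 (chromosome 17, 34039437 to 34066685) was at 14.7 and 8.45 RPKM in positive libraries, or at 6.47 and 19.2 RPKM, against 1.01 and 0.151 RPKM in negative ones, from 466 and 304 reads. Col11a1 (chromosome 3, 114030540 to 114220718) was at 1.60 and 0.821 RPKM, or at 0.607 and 2.12 RPKM, with TdTomato, against 0.142 and 0.00192 RPKM without it, from 458 and 27 reads. Their log2 folds were 4.11 and 2.93. In the authors' deposited table their p was 0.00217 and 0.0393 and their FDR 1.00, so neither passed. The negative library of 74.0 M reads held 74.0 times less Col11a1 and 6.68 times less Col11a2 than that of 17.0 M reads.

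Col27a1 (chromosome 4, 63214004 to 63334991) was at 0.726 and 0.392 RPKM in positive libraries, from 2808 and 1975 reads, against 0.138 and 0.0372 RPKM in negative ones, from 283 and 333 reads. Its mean was 0.559 ± 0.236 RPKM in positive cells and 0.0875 ± 0.0711 RPKM in negative cells (SD, n = 2 each). The log2 fold was 1.81, and in the authors' deposited table p was 0.214 and the FDR 1.00. It had the smallest log2 fold of the 8 genes under either assignment.

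Col10a1 (chromosome 10, 34389981 to 34397085) was at 0.925 and 1.81 RPKM in positive libraries, from 210 and 534 reads, against 0.274 and 0.00951 RPKM in negative ones, from 33 and 5 reads. Its mean was 1.37 ± 0.623 RPKM in positive cells and 0.142 ± 0.187 RPKM in negative cells (SD, n = 2 each). The log2 fold was 2.60, and in the authors' deposited table p was 0.0540 and the FDR 1.00. The positive library of 41.6 M reads was the higher one for Col10a1 and the lower one for Col27a1 and for Sox9. Col10a1 lies wholly within Nt5dc1 on the opposite strand, and whether the counting used strand is not given in the sources used here, so its reads cannot be told from those of Nt5dc1, which had 156 and 222 reads in positive libraries and 401 and 2225 in negative ones. Nt5dc1 was thus lower in positive cells, at 0.0375 and 0.041 RPKM against 0.181 and 0.231 RPKM.

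Measured against each negative library in turn, the members fell into 2 ranges for the library of 17.0 M reads. Col2a1 and the collagen IX genes were 241 to 1400 times higher in positive libraries than in it, over both assignments. With the counting error of the 2 or 3 reads behind them, the ratios ran from 139 to 7584 for Col9a1, from 195 to 4925 for Col9a2 and from 120 to 6790 for Col9a3. Col11a1, Col11a2, Col27a1 and Col10a1 were 2.85 to 19.1 times higher. Sox9 was 1.36 to 4.93 times higher in positive libraries than in the same library, and Acan, which encodes aggrecan, the large proteoglycan of cartilage, 11.4 to 21.9 times. Against the negative library of 74.0 M reads the ranges ran together: Col9a3 at 271 to 1077 overlapped Col11a1 at 317 to 1105, while Col2a1 was 22720 to 53070 times higher and Col27a1 10.6 to 19.5 times. The split between collagens II and IX and the other members is therefore a description of 1 library, and it has no replicate.

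**Figure D2:**
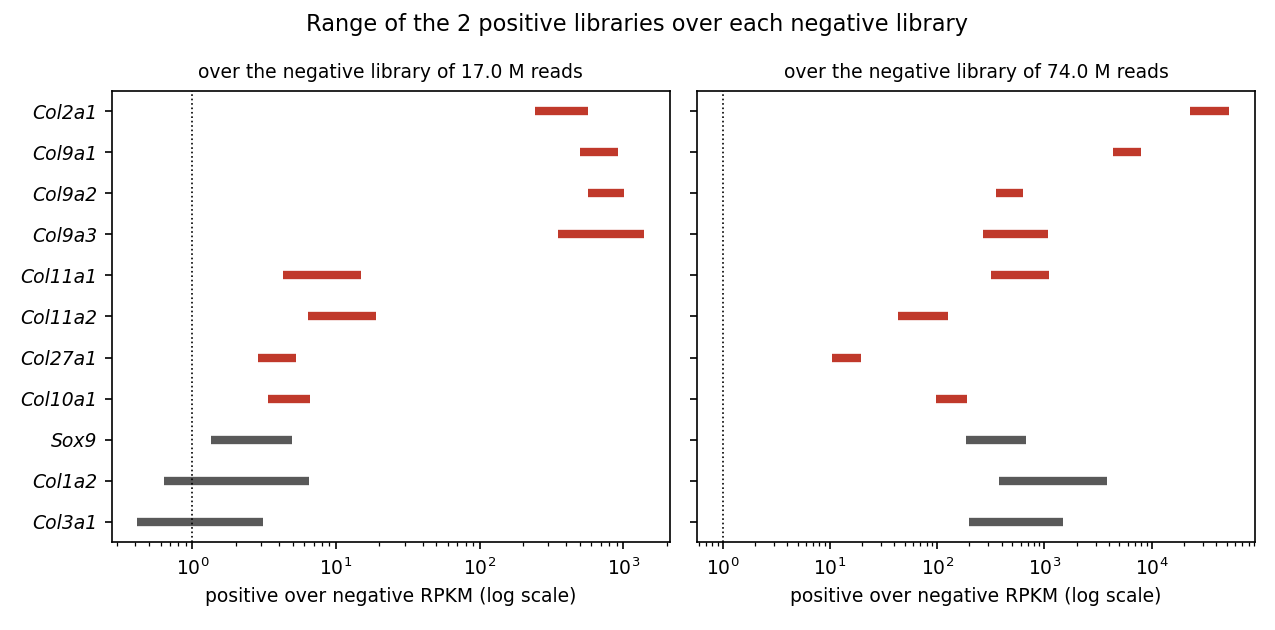
Positive over negative RPKM (log scale) for the 8 genes in red, and for Sox9, Col1a2 and Col3a1 in grey. Bars span the 2 positive libraries and both assignments, over the negative library of 17.0 M reads on the left and of 74.0 M reads on the right. On the left Col2a1 and the 3 collagen IX genes lie at 241 and above, and the other members at 19.1 and below.

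The make-up of the cartilage collagen reads differed between the groups. Since 6 genes are unresolved 1 by 1 in positive cells, each positive share is given with the closer assignment and as a range over all 64 combinations of assignments in both libraries. Col2a1 gave 69.5% and 73.0% of the reads of the 8 genes in the positive libraries of 32.0 and 41.6 M reads, against 7.96% and 0.701% in the negative libraries of 17.0 and 74.0 M reads (95% Wilson intervals 6.64% to 9.53% and 0.30% to 1.63%, which cover counting error only). The range in positive libraries was 55.9% to 82.9%. The 2 collagen XI genes gave 17.8% and 14.1%, with a range of 8.22% to 28.3%, in positive libraries against 68.1% and 46.4% in negative ones (intervals 65.6% to 70.6% and 42.8% to 50.1%). Col27a1 gave 2.22% and 1.73%, with a range of 0.929% to 4.10%, in positive libraries against 20.9% and 46.7% in negative ones (intervals 18.8% to 23.1% and 43.1% to 50.4%). Collagen IX genes gave 10.3% and 10.7%, with a range of 5.88% to 17.9%, in positive libraries against 0.590% and 5.47% in negative ones (intervals 0.299% to 1.16% and 4.03% to 7.39%). These shares rest on 126606 and 113937 reads in positive libraries, between 68476 and 212487 over all combinations, and on 1356 and 713 reads in negative ones. The few cartilage collagen reads of negative cells were thus mostly those of collagens XI and XXVII, and under every combination the share of Col2a1 was higher, and those of collagens XI and XXVII lower, in each positive than in each negative library. The lowest possible share of collagen IX in a positive library, 5.88%, lay within the counting interval of the negative library of 74.0 M reads. With 2 libraries against 2, an exact two-sided permutation test cannot give a p below 0.333.

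**Figure D3:**
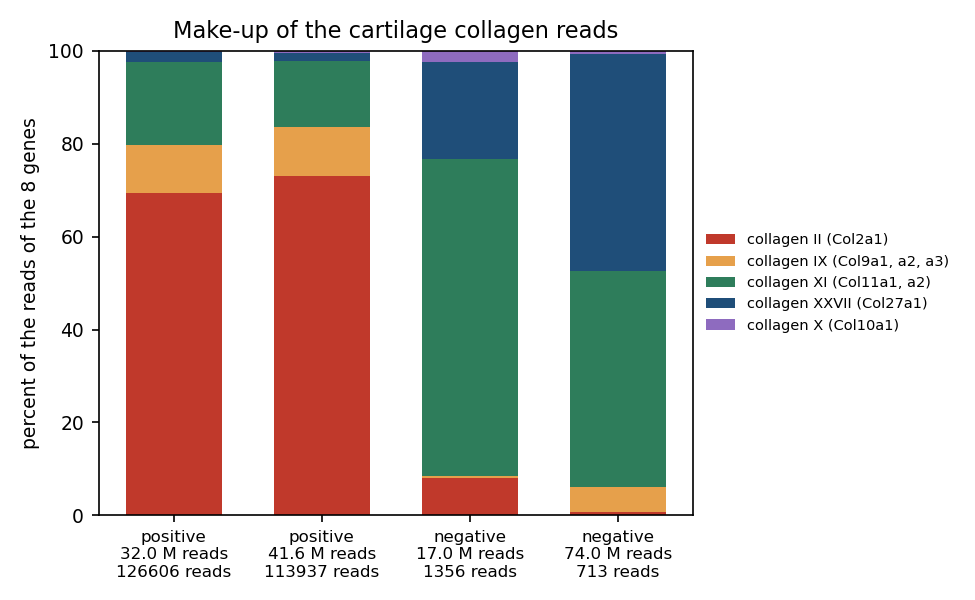
Percent of the reads of the 8 genes that each collagen type took, per library, with the assignment whose 2 positive libraries differ less. Read totals of the 8 genes stand under each bar. Over all combinations the positive share of Col2a1 could lie between 55.9% and 82.9%. As drawn, it takes 69.5% and 73.0% in positive libraries and 7.96% and 0.701% in negative ones.

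Levels of different genes were compared per length of coding sequence, since a genomic span of 190179 bases in Col11a1 and of 7105 bases in Col10a1 makes the RPKM over the span unequal. Reads per kilobase of coding length per M reads averaged 533 for Col2a1 over the positive libraries, and lay between 344 and 804 under either assignment. The averages of Col9a3, Col9a2, Col11a2, Col11a1 and Col9a1 were 66.5, 65.1, 60.6, 42.6 and 29.1 on this scale. Their ranges over libraries and assignments overlapped, at 30.5 to 121 for Col9a3, 48.7 to 87.0 for Col9a2, 33.9 to 100.5 for Col11a2 and 21.3 to 74.5 for Col11a1, so their order is not settled. Col9a1 at 21.4 to 39.2 lay below Col9a2 under either assignment. Col27a1 at 15.9 and 8.58 and Col10a1 at 3.22 and 6.29 were below all the others, and did not overlap each other. Over the genomic span the order of mean positive RPKM was Col2a1, Col11a2, Col9a2, Col9a3, Col10a1, Col11a1, Col9a1 and Col27a1, so 6 of the 8 changed place with the length used. In negative cells the order per coding length was another one, with means of 3.03 for Col11a2, 2.53 for Col11a1, 1.91 for Col27a1 and 0.721 for Col2a1, against 0.112 or less for the collagen IX genes.

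On the scale of the table itself, the group mean times the genomic span, a gene with no reads stands at 2.77 in the positive group and at 3.62 in the negative group, because the offset was divided by depth. The authors' deposited table put Col2a1 at 2310 in positive cells against 10.1 in negative cells, Col11a2 at 335 against 34.3, Col9a2 at 237 against 4.07 and Col9a3 at 165 against 3.90. It put Col10a1 at 39.0 against 11.7, Col11a1 at 37.7 against 7.81, Col9a1 at 32.4 against 3.67 and Col27a1 at 18.8 against 7.93. In negative cells the collagen IX genes, at 3.67 to 4.07, thus stood close to the 3.62 of a gene with no reads. On this scale a gene with no reads has a ratio of 0.764 rather than 1, a log2 shift of -0.39, so that the ratios of the table understate rises.

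Limma on log2(RPKM + 1) of the solved values gave all 8 genes an unadjusted p below 0.05, against 6.82% of measured genes in this direction, and called 0 members and 0 genes in all after Benjamini-Hochberg adjustment. Of the 17166 measured genes, 1170 had an unadjusted p below 0.05 in this direction in that fit. The log2 difference was 6.21 ± 0.23 for Col2a1, 3.22 ± 0.08 for Col9a2, 3.00 ± 0.45 for Col11a2 and 0.51 ± 0.16 for Col27a1 (SE), with adjusted p-values of 0.344 to 0.488 over the 8. Unresolved genes entered this fit with their closer pair of values, so their error is understated. With the other assignment 6 of the 8 had an unadjusted p below 0.05, against 2.02% of measured genes. Leaving out 1 library leaves a group of 1, so such a fit takes its spread from the other group and assumes that the lone library varies likewise. These counts are no check of stability. Leaving out either positive library, of 32.0 or of 41.6 M reads, left 7 of the 8 below 0.05, against 4.2% and 6.3% of measured genes. Leaving out either negative one, of 17.0 or of 74.0 M reads, left 4, against 5.34% and 5.94%. A pseudocount of 0.1 gave 8 of 8 against 4.84%, a floor of 1 RPKM in 2 libraries 5 of 5 against 7.72%, and no floor 6 of 8 against 2.53% of all genes. Pairing the libraries as a replicate block, which the table does not identify, gave 7 of 8 against 9.43% with one pairing and 6 of 8 against 4.8% with the other. After adjustment none of these fits called a member, and the fit with no floor called 0.0042% of all genes as higher.

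**Figure D4:**
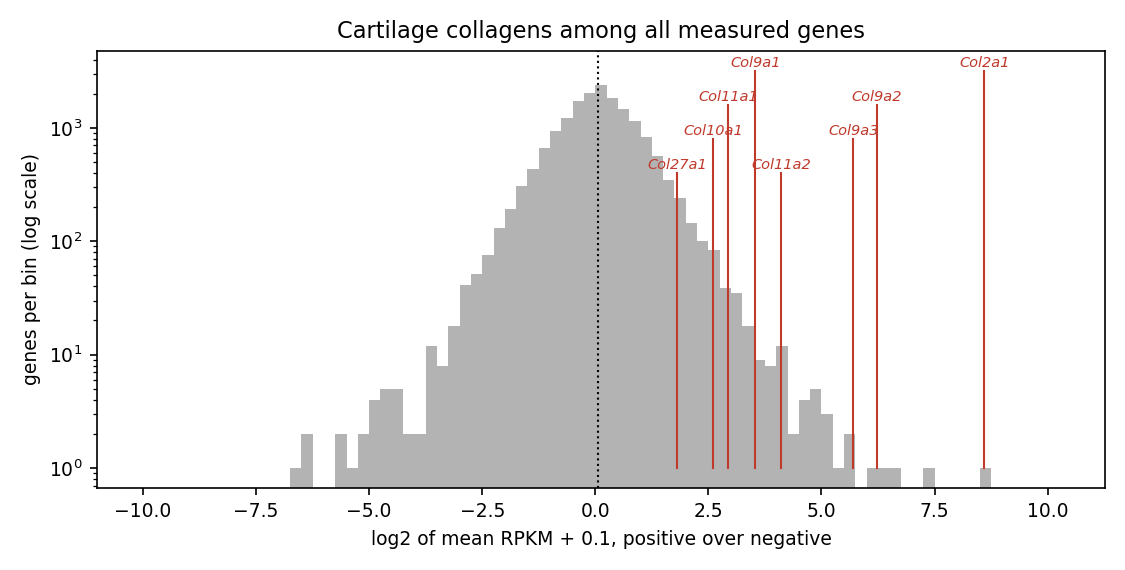
Log2 of mean RPKM + 0.1, positive over negative, for the 17166 measured genes in grey (genes per bin, log scale) and for the 8 members as red lines. The dotted line is the median of all measured genes, 0.06. Col27a1 is the lowest member at 1.81 and Col2a1 the highest at 8.60.

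Other collagens gave a different picture by library. Of 36 other collagen genes, 32 were measured, and 28 of these had a fold above 0, against 54.2% of measured genes. It was 27 with the other assignment and 20 by the ratio of the authors' deposited table, and the median log2 fold was 0.97. None of the 36 passed the FDR of the authors' deposited table. An unadjusted p below 0.05 was found there for 8 of the 36, all higher in positive cells, against 0.598% of all genes in this direction. The groups did not overlap, with the positive one higher, in 9 of the 32 and in all 8 cartilage collagens, beside 14.1% of measured genes. Col1a2, a chain of collagen I, the main collagen of bone, was at 316 and 52.7 RPKM in positive libraries, or at 40.4 and 411 RPKM, against 63.5 and 0.106 RPKM in negative ones. Col3a1, a collagen of soft connective tissue, was at 244 and 55.2 RPKM, or at 42.4 and 318 RPKM, against 102 and 0.214 RPKM. Both therefore overlapped the negative library of 17.0 M reads, where all cartilage collagens were below the positive libraries. The lowest positive value lay below that library in 21 of the 30 other collagens whose negative values could be assigned, and in none of them was it more than 22.8 times above, a ratio reached by Col25a1 on a level of at most 0.0107 RPKM. Col1a1 had the smallest p of the other collagens in the authors' deposited table, 3.49e-04, with an FDR of 0.756. Col20a1, Col4a4 and Col4a3 had the smallest p among those lower in positive cells, 0.499, 0.934 and 0.942 in the authors' deposited table.

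Non-collagen cartilage matrix genes were also higher in positive cells. All 15 measured genes of a list of 17 had a fold above 0 under either assignment, against 54.2% of measured genes. Their median log2 fold was 3.21. An unadjusted p below 0.05 was found in the authors' deposited table for 13 of the 17, against 0.598% of all genes in this direction. The positive libraries were above the negative ones without overlap in 11 of the 15, against 14.1% of measured genes. Mia, a small secreted chondrocyte protein, passed the FDR of the authors' deposited table (0.0198), at 5.19 to 35.9 RPKM in positive cells and 0 reads in both negative libraries. Chad, a cell-binding protein of cartilage matrix, was at 825 and 89.3 RPKM against 31.9 and 0.0762 RPKM. Snorc, a cartilage membrane proteoglycan listed as 3110079O15Rik, was at 3.01 and 16.5 RPKM against 0 reads in both negative libraries. Snorc was higher in the positive library of 41.6 M reads, as Col10a1 was, while Chad was higher in the other.

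Among 15 regulators of chondrocytes, Sox9 was the only one with an unadjusted p below 0.05 in the authors' deposited table (0.0104, FDR 1.00), against 0.598% of all genes in this direction. Its partners Sox5 and Sox6 had log2 differences of 0.07 and -0.09 in limma on log2(RPKM + 0.1), with unadjusted p of 0.852 and 0.798. The pseudocount shrinks the difference of a gene with low values, and the levels of Sox5 and Sox6 are not given here. These differences therefore do not show that either gene was unchanged. Sox8, a close relative of Sox9, was at 1.69 and 0.496 RPKM against 0.0614 and 0.104 RPKM, and Foxa3 was at 0.223 and 0.248 RPKM against 0 and 0.0105 RPKM. Of the 13 measured regulators 10 had a fold above 0, against 54.2% of measured genes, and 5 a ratio above 1 in the authors' deposited table, with a median log2 fold of 0.45. Nkx3-2, Mef2c and Wwp2 had the smallest p among the regulators lower in positive cells in the authors' deposited table. Nkx3-2, with too few reads to be among the measured genes, was at 0 reads in both positive libraries against 0.332 and 0 RPKM. Mef2c was at 0.275 and 0.261 RPKM against 0.299 and 0.499 RPKM, and Wwp2 at 0.598 and 0.609 RPKM against 0.475 and 0.932 RPKM. Of the 28 genes that fold, modify, cleave or crosslink collagen, 26 had a fold above 0, against 54.2% of measured genes, and 22 a ratio above 1 in the authors' deposited table. Their median log2 fold was 1.42, 5 had an unadjusted p below 0.05 (0.598% of all genes) and 0 passed the FDR of the authors' deposited table, and in 2 of the 28 the groups did not overlap, with the positive one higher, a smaller share than the 14.1% of measured genes. Serpinh1, the collagen chaperone HSP47, was at 165 and 38.5 RPKM, or at 29.6 and 215 RPKM, against 63.1 and 0.294 RPKM, so the groups overlapped. Pcolce, an enhancer of propeptide cleavage, was at 94.95 and 20.2 RPKM, or at 15.5 and 124 RPKM, against 27.5 and 0.0451 RPKM. P3h4, which acts with the lysyl hydroxylases, was at 12.7 and 2.66 RPKM against 2.90 and 0 RPKM. Plod3, Mia3 and Colgalt1, which had the smallest p among those with a ratio below 1, lay at p of 0.893, 0.958 and 0.996 in the authors' deposited table. Of 7 collagen receptors none had an unadjusted p below 0.05 in the authors' deposited table. Itga10, the integrin chain through which chondrocytes bind collagen II, was at 1.92 and 0.414 RPKM, or at 0.294 and 2.54 RPKM, against 0.229 and 0.00408 RPKM. It was the 1 receptor of the 7 whose positive libraries both lay above the negative ones, as in 14.1% of measured genes. Itga1 had the opposite order, at 0.0892 and 0.0951 RPKM against 0.0987 and 0.127 RPKM, as 9.98% of measured genes did.

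Of 9 genes of hypertrophic cartilage beside Col10a1, 5 had an unadjusted p below 0.05 in the authors' deposited table, against 0.598% of all genes in this direction, and 0 passed the FDR there. Alpl, Sp7 and Ibsp of this list are also among the osteoblast markers below, so the count is not particular to hypertrophic cartilage. Panx3, a channel protein of hypertrophic chondrocytes and osteoblasts, was at 0.269 and 2.94 RPKM in positive libraries against 0 reads in both negative ones, and like Col10a1 it was higher in the positive library of 41.6 M reads. Mmp13, a collagenase that cleaves collagen II, was at 19.4 and 5.46 RPKM against 4.11 and 0.121 RPKM, with the positive libraries in the other order. Ibsp, which encodes bone sialoprotein, was at 58.1 and 4.65 RPKM against 5.94 and 0.0406 RPKM, so it overlapped. Vegfa, the vessel growth factor, was the measured gene of the list with a fold below 0, and its p was 0.895 in the authors' deposited table. Osteoblast markers also moved with the group: all 10 had a fold above 0 under either assignment, against 54.2% of measured genes. Their median log2 fold was 2.99, or 2.53 with the other assignment. Their summed level was 1421 to 6745 RPKM in positive libraries and 1.87 to 1639 RPKM in negative ones over both assignments, and Dmp1, a protein of osteocytes, was at 0 in the one of 74.0 M reads. Bglap, which encodes osteocalcin, passed the FDR of the authors' deposited table (0.0198). Sparc, which encodes osteonectin, was at 468 and 132 RPKM, or at 101 and 610 RPKM, against 71.8 and 0.164 RPKM. The part of bone-forming cells in the levels of Col11a1, Col11a2, Col27a1 and Col10a1 was not tested.

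The 5 genes most like Col2a1 were those nearest to it in the log2 of mean RPKM over the span + 0.1 of the 2 groups. They were Cytl1, a secreted factor made by chondrocytes, Mia, 1500015O10Rik, which the table lists by this name, Gpha2, a glycoprotein hormone subunit, and Clu, a secreted chaperone. Their distances were 2.39 to 3.00 on the log2 scale, over 2 group levels of 4 libraries, so none was close. Gpha2 was at 18.0 and 8.88 RPKM in positive libraries against 0.594 and 0.0195 RPKM in negative ones, and 1500015O10Rik at 34.6 and 11.4 RPKM against 1.42 and 0.00113 RPKM. All 5 genes were higher in each positive than in each negative library under either assignment. They were picked for group means near those of Col2a1, so this order is largely set by the choice.

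RefSeq promoter windows (GRCm38.p6, 250 bases before to 50 after the start site) were at hand for 6 of the 8 genes, 2 windows for Col9a1. Col2a1 and Col9a3 had none at hand, so their promoters were not searched. The windows were searched on both strands for ACAAT, the core letters bound by SOX factors, GGGCGG, the GC box, and TATAAA, the TATA box. No 2 of the matches overlapped. No window held ACAAT, which 31.0% of all 32851 windows hold. GC boxes were in the windows of Col9a2, with 3, and of Col11a1, Col11a2 and Col27a1, with 2 each, against 35.7% of all windows. TATAAA was in those of Col10a1 and Col11a2, against 13.6% of all windows. The 250 bases before the start site are shown for Col9a2 and Col10a1, as a GC box promoter and a TATA box promoter, with matches on either strand in capitals. The third GC box of Col9a2 lies after the start site and is not shown.
Col9a2, chr4:121039316-121039565, plus strand: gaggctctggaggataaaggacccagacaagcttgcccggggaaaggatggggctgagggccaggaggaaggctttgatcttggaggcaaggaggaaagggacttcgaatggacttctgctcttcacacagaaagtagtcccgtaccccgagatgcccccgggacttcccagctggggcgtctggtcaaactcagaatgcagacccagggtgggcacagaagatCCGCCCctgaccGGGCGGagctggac
Col10a1, chr10:34389731-34389980, plus strand: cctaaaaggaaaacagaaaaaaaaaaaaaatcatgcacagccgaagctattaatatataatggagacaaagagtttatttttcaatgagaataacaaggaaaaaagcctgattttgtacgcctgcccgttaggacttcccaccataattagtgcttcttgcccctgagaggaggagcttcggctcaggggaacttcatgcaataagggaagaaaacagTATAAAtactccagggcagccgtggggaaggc
A match is a run of letters and not a bound site, and the enhancers of these genes, which lie in introns and farther away, were not searched.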

How the data were processed

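Reads were aligned with STAR and quantified in Partek on mm10, per the submitters' processing notes, which give no versions. Per the file headers, the deposited table holds group means and the highest library value as a signal, a difference of group means on the natural log scale, a ratio, scores (a signed fold change and an AICc), and a p-value with its step-up FDR. The headers name the model as lognormal with shrinkage. It has no column per library. The signal, ratio and p-value are the authors'.

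The 4 library values were solved from these means, the maximum and the log difference, with exactly 1 solution for all 47643 genes. They matched RPKM + 0.1 divided once more by depth and span. This scale, the offset and the depths are inferred from the values, and no header states them. The AICc, not used in the solution, ran from -88.7 to 73.3, and from 24.5 to 25.8 once 2 times the sum of the ln of the 4 solved values was taken off. Values were assigned to libraries where 1 assignment alone gave whole reads (within 0.01 plus 1e-07 of the reads) or no negative reads. This settled 9587 of 17166 measured genes in both groups (55.8%). Where whole reads settled positive pairs, the assignment with the smaller difference was right in 64.0% of 8325, so both are printed. No value carries a collection number. Mice were pooled, so p-values reflect the spread of libraries at most.

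Fold changes are log2 of mean RPKM + 0.1. Limma 3.58.1 (R 4.3.3) on log2(RPKM + 1) was the alternative test. The solver and limma were also run on simulated data. These data were built with the inferred offset, depths and scaling, so they cannot check those inferences. Members and lists were chosen with earlier results of these data known. All 8 members are named, with Sox9, list genes past the FDR or else of smallest p, and the 5 genes nearest Col2a1. Acan, Nt5dc1, Col25a1, Cd3e and Dmp1 were added after their values were seen where a comparison needed them. Protein sequences were not used here.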

Additional observations from a re-analysis of the deposited data

How the results depend on the processing

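The test decides the calls, and the folds keep their direction: over 117 pairs of a member and an alternative, all 117 log2 folds were above 0, from 0.36 to 8.80. The count of members called was 1 with the authors' FDR, 2 with their p adjusted over measured genes, and 0 in limma with a pseudocount of 1 or 0.1, with no filter on low values, with at least 1 RPKM in 2 libraries, with the other assignment of unresolved genes, and without each library in turn (0 to 0). Col2a1 was not called in any of the 11 limma fits, and the lowest adjusted p of a member there was 0.101. The median log2 fold of the members was 3.82. It was 3.21 on the deposited group means and 1.83 in limma with a pseudocount of 1, with or without the filter. Limma with at least 1 RPKM in 2 libraries gave 3.00, over the 5 members that passed by their positive values. With the other assignment the median was 3.92 on mean RPKM + 0.1, and 1.85 in limma with a pseudocount of 1. The same limma gave 1.71 to 2.20 without each library, where a group of 1 borrows its spread from the other. The count of members whose groups do not overlap was 8 in RPKM and 7 on the deposited scale, where Col27a1 overlapped. A pseudocount of 1 lowers folds of low genes by construction. Geometric means that do not depend on the assignment, added after seeing the data, gave 3.98.

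The table does not say which libraries were collected together, so each possible pairing was fitted as a replicate block: members called were 0 with either, the median was 1.83 with both, and 7 members had an unadjusted p below 0.05 with 1 pairing and 6 with the other. Depth limits members with few negative reads: 2 or 3 reads stand behind each collagen IX level in the library of 17.0 M reads, and 5 behind Col2a1 and Col10a1 in that of 74.0 M reads. Gly-X-Y runs from protein sequences were not run.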
